A study of Mus musculus with 22 samples.

Results

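Lines 780 and p1522 are mammary tumour cell lines from mice that lost a tumour suppressor, and they were set against 10 mammary tumour lines from mice that carry an oncogene transgene. The lines were taken by their titles, 12 of the 22 lines of the series, and RNA was measured on 1 mouse exon array per line. Line 780 is labelled BRCA null, without saying which BRCA gene, and p1522 is labelled p53 null. In both models the deletion is driven in the mammary gland by a cre transgene, Wap-cre in 780 and MMTV-cre in p1522. The labels differ on p53: the sample description gives 780 as p53+/+ and the growth protocol as p53+/-, and p1522 is p53-/- in the description and p53+/- in the growth protocol. The null group is therefore 2 single lines of different genotype.

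The oncogene side holds 6DT1, cMyc and Myc83 with an MMTV-Myc transgene, MVT1 and MVT2 with MMTV-Myc and VEGF, and 2508 and 2855, both from carcinoma ZD2508 of an MMTV-Wnt mouse. M6 comes from a C3(1)Tag mouse, which expresses the SV40 T antigen, and M6C from a lung metastasis of M6. DB7 comes from a transplanted tumour with the Db form of the polyoma middle T antigen (MMTV-PyVT), a double mutant uncoupled from PI3K. Lines 2508 and 2855 were averaged as ZD2508 and M6 and M6C as M6, which left 8 oncogene lineages, 5 of them with Myc. Both null lines, DB7, M6, M6C, MVT1 and MVT2 grew in high-glucose DMEM with differing supplements, 6DT1, cMyc and Myc83 in low-glucose DMEM, and 2508 and 2855 in DMEM/F12 with insulin and epidermal growth factor.

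BRCA1 and BRCA2 act in homologous recombination, which repairs broken DNA without loss of sequence, and p53 is the transcription factor that halts the cell cycle or starts apoptosis after DNA damage. Mouse mammary glands that lose either can form tumours, often after further genetic changes. Oncogene transgenes act from the other side, by driving growth: Myc through transcription, Wnt through beta-catenin, middle T antigen through kinase signalling, and T antigen by binding p53 and the Rb family. Interferon-stimulated genes, which enter the results below, are switched on by transcription factors such as STAT2 and IRF9 downstream of the interferon receptors and encode sensors of foreign nucleic acid, antiviral enzymes and chemokines.

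Values are log2 array values throughout, so a difference of 1 is a 2-fold difference. The null lines had 2 of the widest spreads of values among the 12 arrays: the SD over probe sets was 2.10 in 780 and 2.12 in p1522, against a lowest SD of 1.76 in 2855. Array medians lay between 6.82 (780) and 7.17 (2855). A value near or below these medians is close to background, and the size of a change there is uncertain. The median difference over all 16755 probe sets, null minus oncogene, was -0.11, and it was -0.01 after centring each array on its median and -0.03 after quantile normalization. Array brightness and the line groups moved together in this way, and their part in the results was not tested.

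The genes of the named alleles were read first. Brca1, which encodes a subunit of the repair complex that resects and guides broken ends, read 9.36 in 780 and 8.47 in p1522, against 7.66 to 8.69 (median 8.26) in the 8 oncogene lineages. Brca2, which acts in repair by homologous recombination, read 7.60 in 780 and 7.34 in p1522, against 6.04 to 7.55 (median 6.79). Line 780 was thus above all 8 lineages for both genes and p1522 lay within their range. Where the probes lie relative to a deleted exon is not stated, so the labels cannot be checked with these values, and Trp53 was not analysed here. Myc read 11.01 and 11.45 in 780 and p1522, near the oncogene median of 11.10 (9.16 to 11.94).

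The genes that set both null lines apart from the oncogene lineages included a block of interferon-stimulated genes. In limma, 24 of 16755 probe sets (0.143%) were higher in the null lines at an adjusted p of 0.05, and 0 were lower (0%). At an unadjusted p of 0.05, 710 probe sets were higher (4.24%) and 1716 lower (10.2%). In all 24 called probe sets both null lines lay above all 8 oncogene lineages. In bulk RNA of a culture, more cells that express a gene and more RNA per cell cannot be told apart. Of the 24, 18 carry 1 gene symbol, and 6 of those belong to the interferon response list: Oasl2, Irf7, Ifih1, Dhx58, Stat2 and Bst2.

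Promoters of 4 of the called genes are shown because they carry the core of the element that the complex of STAT2 and IRF9 binds. The letters searched were GAAA, any 2 bases and GAAA again, and the reverse complement TTTC, any 2 bases and TTTC, from 250 bases before to 50 after the gene start, overlapping matches included, in RefSeq promoters of GRCm38.p6. Capitals mark the matches. Each sequence reads 5' to 3' on the strand of its gene. Bst2 lies at chr8:71537423-71537722 on the minus strand, Ddx60 at chr8:61927837-61928136 on the plus strand, Ifih1 at chr2:62646206-62646505 on the minus strand and Stat2 at chr10:128270248-128270547 on the plus strand.
Bst2: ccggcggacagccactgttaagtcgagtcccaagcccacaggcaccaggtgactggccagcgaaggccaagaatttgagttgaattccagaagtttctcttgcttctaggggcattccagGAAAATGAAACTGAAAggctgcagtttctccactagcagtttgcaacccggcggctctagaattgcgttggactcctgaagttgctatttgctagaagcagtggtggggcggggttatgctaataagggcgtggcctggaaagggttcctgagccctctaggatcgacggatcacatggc
Ddx60: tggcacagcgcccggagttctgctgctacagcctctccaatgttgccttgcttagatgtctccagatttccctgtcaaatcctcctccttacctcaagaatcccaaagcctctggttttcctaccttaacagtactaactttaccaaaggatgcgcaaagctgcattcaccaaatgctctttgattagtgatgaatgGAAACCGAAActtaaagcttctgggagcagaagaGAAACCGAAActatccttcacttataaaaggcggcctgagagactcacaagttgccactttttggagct
Ifih1: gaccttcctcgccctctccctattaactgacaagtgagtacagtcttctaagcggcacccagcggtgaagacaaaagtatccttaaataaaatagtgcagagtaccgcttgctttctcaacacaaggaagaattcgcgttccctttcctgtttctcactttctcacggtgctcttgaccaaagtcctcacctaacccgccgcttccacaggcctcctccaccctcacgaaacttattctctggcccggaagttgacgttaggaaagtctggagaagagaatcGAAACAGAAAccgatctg
Stat2: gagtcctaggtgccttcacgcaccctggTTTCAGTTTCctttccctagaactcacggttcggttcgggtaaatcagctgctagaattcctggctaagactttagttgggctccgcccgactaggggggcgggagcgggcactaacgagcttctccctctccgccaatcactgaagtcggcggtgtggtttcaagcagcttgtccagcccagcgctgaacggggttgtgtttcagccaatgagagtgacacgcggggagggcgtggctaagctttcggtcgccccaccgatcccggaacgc
The Bst2 promoter held 2 overlapping matches, the first starting 130 bases before the gene start. Ddx60 held 2 copies, 53 and 19 bases before its start, while the Ifih1 match began 32 bases after the start and the Stat2 match 222 bases before it. Of the 14 called genes with a promoter in the RefSeq table, these 4 (28.6%) held a match. So did 9 of 16 genes of the interferon response list with a promoter (56.2%). A gene with more than 1 promoter was counted once, as a match if any of them matched. Counted by promoter and not by gene, 1131 of the 32851 promoters searched (3.44%) held a match, so this share is in a different unit. A match describes letters in this window and does not show binding.

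Among the transcription factors and signal carriers of the pathway, Irf7, the factor that amplifies interferon gene transcription, read 8.98 in 780 and 8.18 in p1522. The 8 oncogene lineages ran from 5.44 to 6.70 with a median of 5.71, so the groups did not overlap, and the difference was 2.71 (SE 0.32, limma adjusted p = 0.00869). Stat2, a subunit of the DNA-binding complex itself and one of the genes whose promoter is printed above, read 8.70 and 7.79 against 6.70 to 7.09 (median 6.97). It rose by 1.31 (SE 0.21, limma adjusted p = 0.0474). Irf9, another subunit of that complex, read 10.21 and 9.80 against 7.30 to 9.57 (median 7.60), with DB7 the highest oncogene lineage, and its difference of 2.19 (SE 0.49) did not pass (limma adjusted p = 0.258).

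The sensors of viral RNA formed the second group. Ifih1, which encodes MDA5, read 8.85 in 780 and 7.86 in p1522 against 5.55 to 6.74 (median 5.82), a rise of 2.32 (SE 0.35, limma adjusted p = 0.0348). Dhx58, which encodes the related helicase LGP2, read 7.74 and 7.30 against 5.37 to 5.97 (median 5.53), a rise of 1.90 (SE 0.20, limma adjusted p = 0.00380). Both null lines stood above every oncogene lineage for both helicases. Ddx58, which encodes RIG-I, read 10.96 and 10.48 against 8.49 to 9.78 (median 9.14), and its difference of 1.62 (SE 0.29) did not pass (limma adjusted p = 0.0910). Ddx60, a helicase linked to antiviral signalling, rose by 2.06 (SE 0.29, limma adjusted p = 0.0260), from a median of 4.19 (3.95 to 4.90) to 6.83 in 780 and 5.74 in p1522, values that all lie near or below the array medians.

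Effector genes formed the third group. Gvin1, a very large interferon-inducible GTPase, read 9.13 in 780 and 8.67 in p1522 against 5.02 to 5.91 (median 5.38), a rise of 3.50 (SE 0.24, limma adjusted p = 0.000131). Oasl2, of the family of oligoadenylate synthetases that sense double-stranded RNA, read 10.60 and 9.85 against 6.16 to 8.29 (median 6.79), a rise of 3.33 (SE 0.46, limma adjusted p = 0.0260). Its relative Oas1b, known in mice for resistance to flaviviruses, read 7.67 and 7.02 against 4.91 to 5.68 (median 5.13) and rose by 2.09 (SE 0.23, limma adjusted p = 0.00558). The probe sets of Oas1a with Oas1g and of Oas3 with Oit3 were also called, but each carries 2 symbols and no single gene can be read from it. Bst2, which tethers budding virus particles to the membrane, read 9.99 and 9.02 against 7.38 to 8.09 (median 7.73) and rose by 1.76 (SE 0.26, limma adjusted p = 0.0326). Helz2, a helicase known as a co-activator of nuclear receptors, held the tightest oncogene lineage values, 7.46 to 7.68 (median 7.61). The null lines read 9.22 and 9.27, a rise of 1.65 (SE 0.11, limma adjusted p = 0.000131). Lines M6C and M6, averaged into 1 lineage, read 7.14 and 7.78, so single lines spread more widely than the lineages. Trim30a, a TRIM-family ubiquitin ligase, had one of the widest gaps, 2.18, between the lower null line and the highest oncogene lineage (10.65 and 10.45 against 5.18 to 8.27, median 6.94), but the oncogene lineages varied and it did not pass (difference 3.75, SE 0.82, limma adjusted p = 0.226).

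**Figure D1:**
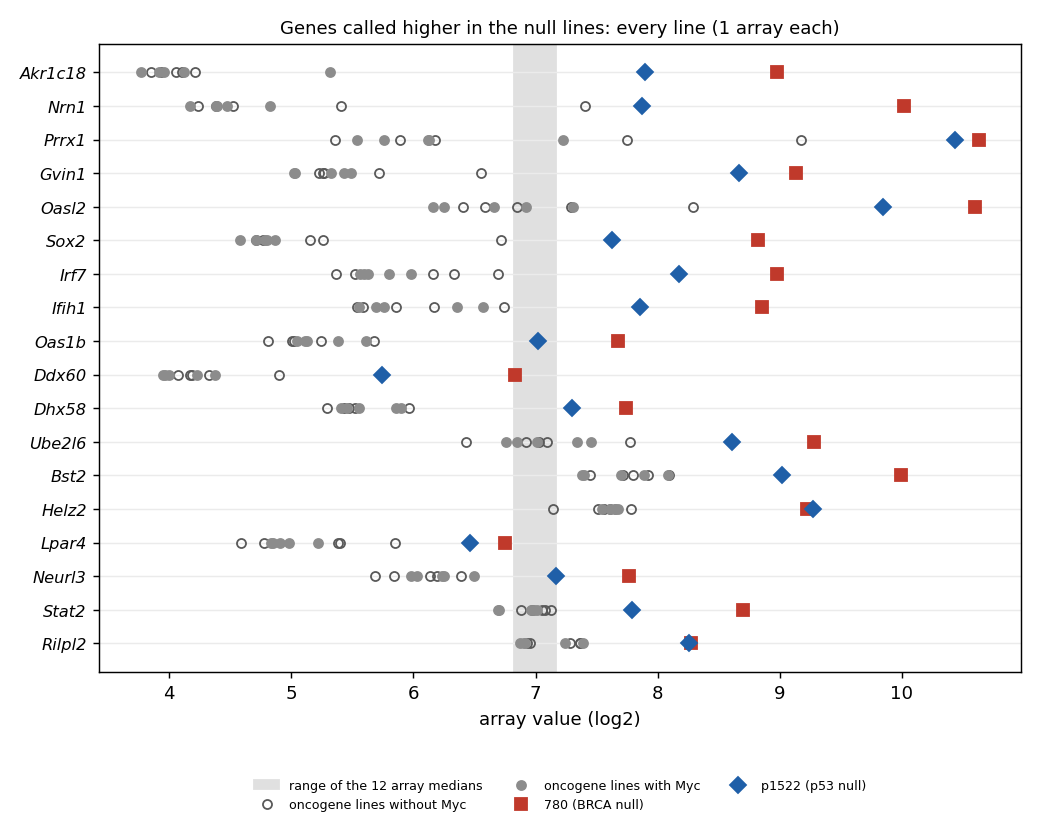
Log2 array values (x axis) of the 18 called genes with 1 symbol in every line, 1 array each, with red squares for 780, blue diamonds for p1522, filled circles for oncogene lines with Myc and open circles for those without, and the grey band for the range of the 12 array medians (6.82 to 7.17). Both null lines lie to the right of the 8 oncogene lineages for each gene; the circles show single lines, so for Prrx1 the ZD2508 lineage appears as 2508 (6.18) and 2855 (9.17).

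Over the whole interferon response list, 22 of 28 genes were measured and 21 of these were higher in the null mean, with a median difference of 1.73 against -0.11 over all probe sets. Both null lines lay above all 8 oncogene lineages for 16 of the 22 (72.7%), against 513 of all 16755 probe sets (3.06%). Among genes whose higher group mean exceeded every array median, 15 of 21 did so, against 447 of 8245 probe sets (5.42%). The gene on the lower side was Irf1, an interferon-induced transcription factor, with a difference of -0.06 (SE 0.32). Line 780 alone was above all 8 lineages for 19 of the 22 genes (86.4%, against 13.1% of all probe sets) and p1522 for 18 (81.8%, against 8.97%). The list was chosen with earlier results of these data known, so its counts are a description.

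The level of the list differed by line. Centred on the mean of the 10 lineages, the 22 genes averaged 1.79 in 780 and 1.09 in p1522. DB7 followed at 0.53, and the other 7 oncogene lineages lay between -0.75 (M6) and -0.16 (6DT1). Outside the comparison, the spontaneous tumour lineages ran from -0.52 (TSA) to 0.62 (EMT6), and the immortalized lines EPH4 and NMUMG read -0.50 and -0.80. Both null lines were therefore the highest of the 17 lineages of the series on this list. Gene by gene, 17 of the 22 were higher in 780 than in p1522, with a median difference of 0.65, against 9207 of all 16755 probe sets and a median of 0.03. Ifit1, an antiviral protein that binds foreign RNA ends, shows the place of DB7: it read 11.33 in 780, 8.96 in p1522 and 9.99 in DB7, with the other lineages between 4.95 and 6.48, and it did not pass (limma adjusted p = 0.341).

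Antigen presentation genes, which load peptides onto MHC class I, moved the same way by less. All 10 measured genes were higher in the null mean, against 39.1% of all probe sets. Their median difference was 0.55, and 0 passed the test. Both null lines lay above all 8 lineages for 4 of them (B2m, Psmb8, Tap1 and Tapbp), 40% against 3.06% of all probe sets. Psmb8, a catalytic subunit of the immunoproteasome, read 9.17 in 780 and 8.69 in p1522 against 5.58 to 7.91 (median 6.14), a difference of 2.58 (SE 0.48, limma adjusted p = 0.105). The peptide transporter subunit Tap1 read 8.33 and 8.01 against 6.53 to 7.44 (median 6.79), a difference of 1.32 (SE 0.22, limma adjusted p = 0.0597). DB7 was the highest oncogene lineage for Psmb8. Outside the comparison, the spontaneous lineage EMT6 was higher on this list than both null lines. Centred on the mean of the 10 lineages, the genes averaged 0.94 in EMT6, 0.61 in 780 and 0.54 in p1522. The spontaneous maxima of Psmb8 (9.69), Tap1 (8.75) and Tapbp (10.91) lay above both null lines, and that of B2m (12.90) below both. Of 11 immune cell markers, 10 were lower in the null mean, as were 60.9% of all probe sets. After quantile normalization 6 were lower, against 54.7%. The pan-leukocyte gene Ptprc read 4.30 in 780 and 4.47 in p1522 against 4.36 to 4.70, far below every array median. In each null line 2 of 11 immune markers, Cd68 and Cd14, exceeded the array median, against 1 to 2 in the oncogene lines. Cd14 was the 1 higher in the null mean, at 8.49 and 9.01 against 6.86 to 9.30 (median 7.46), and did not pass (limma adjusted p = 0.343). The called probe set of Lilrb4a with Lilr4b read 6.86 and 7.65 against 3.40 to 4.85 (limma adjusted p = 0.0178), but no single gene can be read from it.

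The remaining called genes have other known roles. Akr1c18, the enzyme that inactivates progesterone, showed the greatest difference among the named calls: it read 8.98 in 780 and 7.89 in p1522 against 3.77 to 5.32 (median 3.99), a rise of 4.30 (SE 0.38, limma adjusted p = 0.00138), about 19.7-fold. Nrn1, neuritin, a membrane-anchored protein of neurite growth, read 10.01 and 7.87 against 4.17 to 6.41 (median 4.39) and rose by 4.27 (SE 0.60, limma adjusted p = 0.0260). Prrx1, a homeobox factor of mesenchymal cells, read 10.63 and 10.43 against 5.54 to 7.75 (median 6.12) and rose by 4.05 (SE 0.60, limma adjusted p = 0.0326). Sox2, a transcription factor of pluripotent and neural progenitor cells, read 8.82 and 7.63 against 4.58 to 6.72 (median 4.79), with DB7 highest, and rose by 3.17 (SE 0.50, limma adjusted p = 0.0446).

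The called genes stood differently against the rest of the series. Nrn1 was at most 4.70 in every spontaneous and immortalized lineage. Akr1c18 reached 6.79 and Gvin1 6.16 in the highest spontaneous lineage, below both null lines. For 5 of the 18 named calls, Prrx1, Sox2, Stat2, Neurl3 and Lpar4, a spontaneous or immortalized lineage lay above the lower null line. The spontaneous maxima were 11.20 for Prrx1, 8.92 for Sox2, 8.25 for Stat2, 8.21 for Neurl3 and 8.61 for Lpar4. Neurl3 read 11.24 in NMUMG, against 7.76 and 7.17 in the null lines, and Lpar4 7.01 in EPH4, against 6.75 and 6.46. The 4 other named calls were smaller: Ube2l6, which passes the interferon-induced modifier ISG15 to its targets (1.83, SE 0.28), Lpar4, a receptor for lysophosphatidic acid (1.54, SE 0.23), the ubiquitin ligase Neurl3 (1.34, SE 0.21) and Rilpl2 (1.17, SE 0.17), with limma adjusted p of 0.0397, 0.0348, 0.0474 and 0.0299. They fall outside the rule for named genes and were added after their values were seen. Of the other called probe sets, 4 carry several symbols and 2 none.

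These calls rest on few lines. Without 780 the count was 16 and 3 of the 18 named genes were still called, Akr1c18, Gvin1 and Helz2, which were also the 3 called in all 10 fits that leave out 1 lineage. Without p1522 the count was 118 (91 higher, 27 lower), without DB7 45, and without 6DT1, cMyc, M6, MVT2 or Myc83 it lay between 10 and 14. With the oncogene lineages cut to those in high-glucose DMEM, or to those without Myc, Akr1c18 and Gvin1 were the 2 of the 18 still called, in fits with fewer lineages. The interferon list had 6 called members, and 0 in both of these limma fits, 2 with Myc as a covariate, and from 1 (without 780) to 12 (without DB7) with 1 lineage left out.

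**Figure D2:**
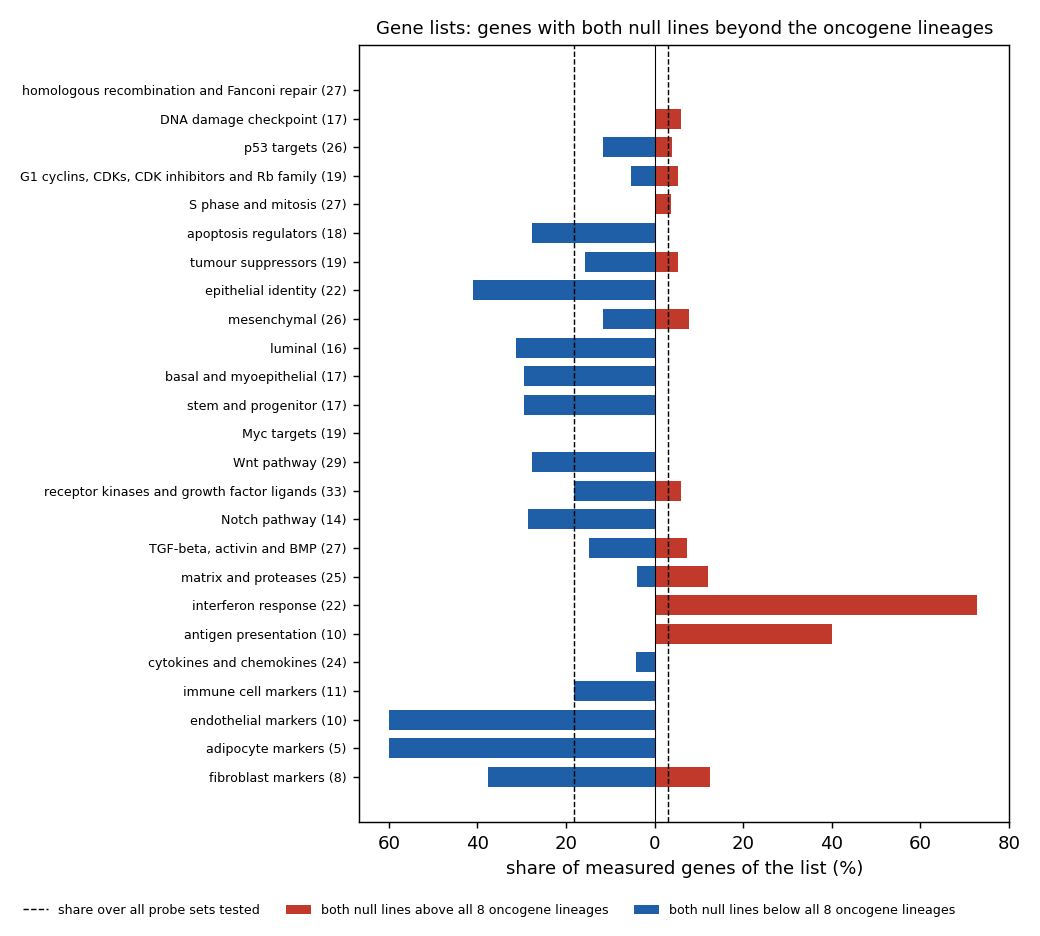
Share of the measured genes of each list (number in brackets, x axis in percent) where both null lines lay above (red, to the right) or below (blue, to the left) all 8 oncogene lineages, with dashed lines for the shares over all probe sets tested (3.06% above, 18.2% below). Interferon response (72.7%) and antigen presentation (40%) reach furthest right; endothelial and adipocyte markers reach furthest left, where most values are near background.

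Both null lines lay below all 8 oncogene lineages for 3057 probe sets (18.2%), but most of these were dim. Of them, when all probe sets were divided by mean level into 3 equal bins, 1663 fell in the lowest bin, 1295 in the middle and 99 in the highest, while the 513 on the upper side split as 54, 207 and 252. With the level filter the 2 sides were 362 below (4.39%) and 447 above (5.42%) of 8245. Quantile normalization moved the counts to 1067 below and 540 above. The lower count moved with the array scaling, and this side is described here through its brighter genes, of which 0 passed the limma test.

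Insig1, which holds the cholesterol-sensing SREBP complex in the endoplasmic reticulum, came nearest to the threshold on the lower side. It read 6.72 in 780 and 7.88 in p1522 against 8.70 to 9.88 (median 9.19) in the oncogene lineages, with no overlap, a difference of -1.89 (SE 0.31, limma adjusted p = 0.0545). Its limma adjusted p was 0.0293 after quantile normalization, 0.00844 without p1522 and 0.119 after centring. Perp, a p53 and p63 target that holds desmosomes together, read 5.85 in 780 and 7.98 in p1522 against 8.51 to 12.53 (median 12.03), a difference of -4.52 (SE 0.91, limma adjusted p = 0.170). Its lowest oncogene value was in MVT2, and without MVT2 it passed at 0.0123. Galnt3, which starts mucin-type O-glycans, had the widest gap to the lineages (-0.94), at 5.10 and 5.75 against 6.69 to 9.70 (median 8.34). It did not pass (-2.76, SE 0.87, limma adjusted p = 0.341). Its lowest lineage, ZD2508, averages 2508 (5.49), which lay below p1522, and 2855 (7.90).

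The other genes with the widest gaps below gave a mixed set, and none passed. Spry1, an inhibitor of receptor kinase signalling, read 6.12 and 5.73 against 6.64 to 8.39 (median 7.39). Cbr2, a carbonyl reductase, read 8.45 and 8.47 against 9.003 to 11.10 (median 10.32), and it was the brightest of the set in the null lines. Mapk12, the gamma form of p38 kinase, read 6.11 and 6.30 against 6.78 to 7.81 (median 7.15). Mfsd6, Thsd4, Camsap3 and Col9a3 completed it, with differences of -1.93, -1.52, -1.56 and -0.80.

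Epithelial identity genes were lower in the null mean for 22 of 22 measured members, with a median difference of -1.24, and 0 passed. The oncogene lineages themselves spread over much of the array range for these genes. Both null lines lay below all 8 lineages for 9 of the 22, against 18.2% of all probe sets, and after quantile normalization for 3, against 6.37%. With the level filter it was 4 of 12, against 4.39%. Cdh1, which encodes E-cadherin, read 6.28 in 780 and 6.496 in p1522 against 6.55 to 11.76 (median 7.78), a difference of -2.17 (SE 1.41, limma adjusted p = 0.409). Epcam, an epithelial adhesion molecule, read 5.58 and 5.42 against 5.29 to 11.58 (median 7.32). The null lines sat at the low end next to several Myc lines, not apart from them. In each null line 3 of the 22 exceeded the array median (Krt18, Cldn4 and Esrp2 in 780, Krt18, Spint1 and Spint2 in p1522), against 2 to 19 in the oncogene lines. Krt18, a keratin of simple epithelia, was bright in both, at 9.14 and 10.25 (oncogene lineages 7.85 to 11.13), and Vim, the mesenchymal intermediate filament, at 12.91 and 13.05 (12.55 to 13.25). Both null lines, labelled as mammary tumour lines, thus held few of the epithelial markers above the array median.

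**Figure D3:**
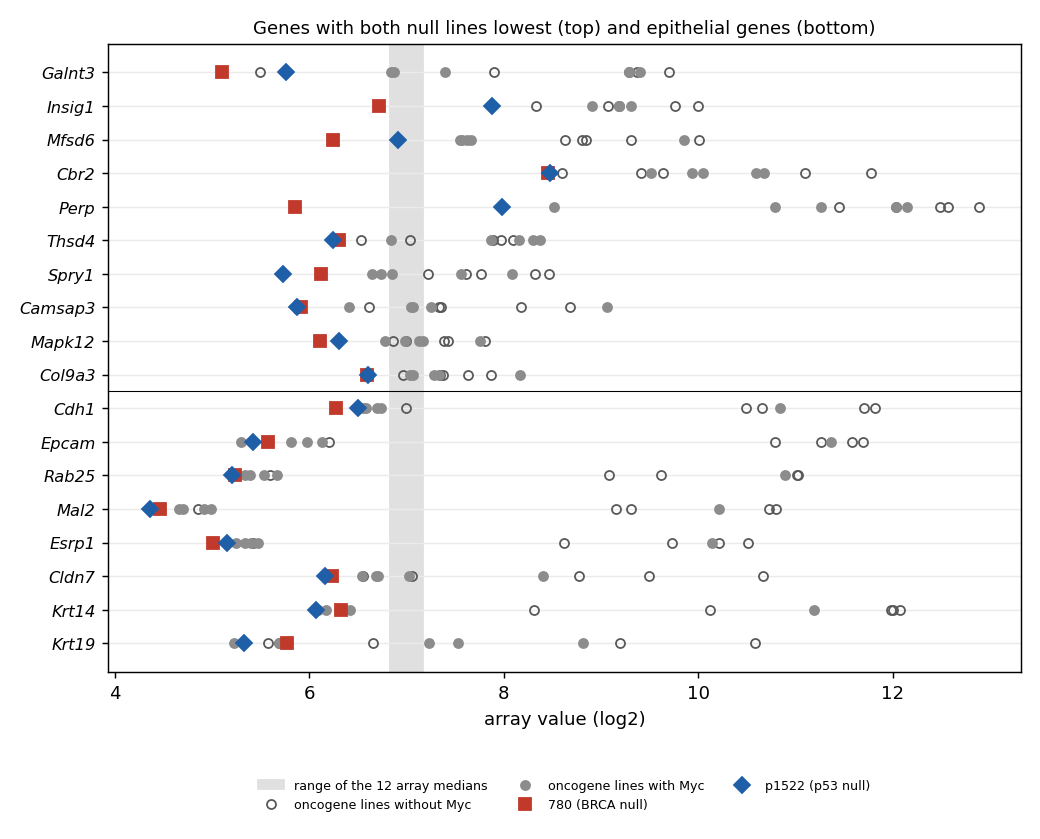
Log2 array values (x axis) in every line, 1 array each, of the 10 genes with the widest gap below the oncogene lineages (above the line) and of 8 epithelial genes (below the line), with symbols as in the plot of called genes. The null lines lie lowest for the upper genes, apart from single lines averaged into a lineage such as one line for Galnt3; for the epithelial genes the oncogene lines spread from about the null values to over 4 log2 units above them (Cdh1 reaches 11.76 in the highest lineage).

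DNA repair genes were slightly higher in the null mean. All 27 measured genes of homologous recombination and Fanconi repair were higher, with a median difference of 0.32, also after centring (0.42) and quantile normalization (0.32). None passed. Both null lines lay above all 8 oncogene lineages for 0 of the 27 (3.06% of all probe sets) and below for 0 (18.2%). After centring 3 of the 27 lay above, against 4.95% of all probe sets. After quantile normalization 1 lay above, against 3.22%. Line 780 was above all 8 lineages for 15 of the 27 and p1522 for 5, where the shares over all probe sets were 13.1% and 8.97%. Bard1, the partner of BRCA1, read 9.76 in 780 and 8.74 in p1522 against 7.98 to 8.80 (median 8.40). Its difference was 0.85 (SE 0.25, limma adjusted p = 0.341). Genes of S phase and mitosis were higher for 25 of 27, with a median of 0.30 (0.19 after quantile normalization). By line, the mean centred level of the repair list was 0.43 in 780 and 0.17 in p1522, and that of the S phase and mitosis list 0.24 and 0.27.

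Among checkpoint genes, Chek1, a kinase that holds cells before mitosis, read 9.62 and 9.47 against 8.10 to 9.35 (median 8.78), the 1 gene of 17 with both null lines above all lineages, a share near that over all probe sets (3.06%, or 5.42% with the level filter). Its difference was 0.72 (SE 0.27, limma adjusted p = 0.341). Line M6C, averaged into the M6 lineage, read 9.50 for Chek1, above p1522. Rb1, which restrains entry into S phase, read 8.25 and 7.997 against 6.89 to 8.01 (median 7.33). Of 19 tumour suppressors, both null lines were above for 1 and below for 3 (Cdh1, Dlc1 and the fragile-site gene Fhit), again near or below the shares over all probe sets (3.06% above, 18.2% below). The 1 above was the fragile-site gene Wwox, at 8.92 and 8.40 against 7.504 to 8.09 (difference 0.78, SE 0.18, limma adjusted p = 0.258). For Fhit, line M6C at 5.08 lay below both null lines (5.16 and 5.18).

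Targets of p53 split by direction. Of 26 measured, 11 were higher and 15 lower in the null mean, with a median of -0.03 that turned to 0.07 after centring, and 0 passed. Mdm2, the ubiquitin ligase that p53 induces against itself, read 8.70 in 780 and 9.86 in p1522, and Cdkn1a, the p21 inhibitor of cyclin-dependent kinases, 8.003 and 9.68. The oncogene lineages ran from 8.36 to 10.16 and from 7.46 to 10.01, so both null lines lay inside. Line p1522, labelled p53 null, was the higher of the pair for both genes. The median of 780 minus p1522 over the list was -0.62. Bbc3 and Pmaip1, which encode the apoptosis triggers PUMA and NOXA, read 6.15 and 6.31 in 780 and 6.13 and 6.27 in p1522, below all lineages but also below every array median. Rps27l, a ribosomal protein paralog, was the 1 of 26 with both null lines above, near the share over all probe sets (3.06%), at 10.22 and 9.41 against 5.44 to 9.39 (median 7.45). Its gap was 0.024, and after quantile normalization 0 of the targets lay above. Outside the comparison, Rps27l read 9.66 to 10.83 in the spontaneous lineages, 9.44 in EPH4 and 10.56 in NMUMG, all above p1522.

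Growth factor and matrix genes gave further single differences. Met, the receptor for hepatocyte growth factor, read 12.40 in 780 and 10.46 in p1522 against 8.92 to 10.33 (median 9.57), a difference of 1.77 (SE 0.48, limma adjusted p = 0.341). Pdgfra, a receptor for platelet-derived growth factor, read 7.78 and 7.97 against 6.08 to 7.63 (median 6.42). Thbs2, a matrix thrombospondin, read 9.64 and 7.97 against 5.73 to 7.37 (median 5.83), and its difference of 2.72 (SE 0.47) missed the threshold at a limma adjusted p of 0.0737 but passed without ZD2508 (0.0198), without p1522 (0.0144) and after centring (0.0423). The protease Mmp9 and its inhibitor Timp1 were also above all lineages in both lines, by gaps of 0.07 and 0.15. Single lines averaged into ZD2508 exceeded p1522, 2855 for Pdgfra (9.06) and Timp1 (11.58) and 2508 for Thbs2 (8.19) and Mmp9 (6.94). Jag2, a Notch ligand, was below in both, at 6.69 and 6.62 against 7.04 to 9.37 (median 8.68), a difference of -1.87 (SE 0.51, limma adjusted p = 0.341). Of the Notch list 11 of 14 genes were lower, and of the Wnt list 23 of 29, where 60.9% of all probe sets were lower. The medians were -0.49 and -0.37 (-0.29 and -0.23 after quantile normalization), and 0 passed in either. The Wnt transgene lines are themselves on the oncogene side.

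**Figure D4:**
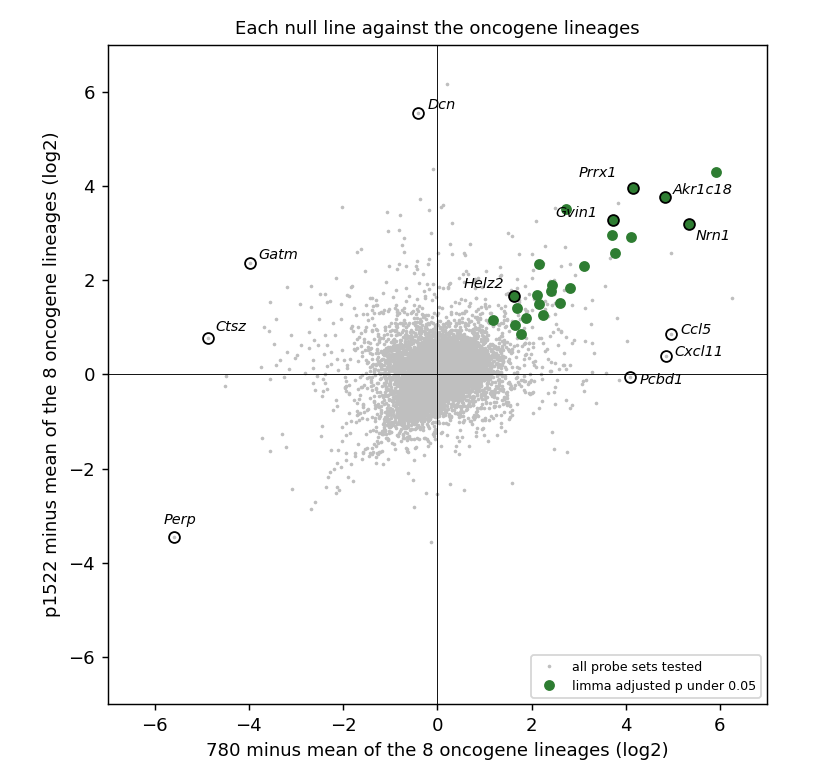
Each point is 1 of 16755 probe sets, with 780 minus the mean of the 8 oncogene lineages on the x axis and p1522 minus the same mean on the y axis, both in log2 units; green points are the 24 called probe sets and circled points are named. The green points all lie upper right, and Dcn, Gatm and Ctsz on one side and Ccl5, Cxcl11 and Pcbd1 on the other differ between the null lines; the axes share the oncogene mean, so the shape of the cloud is not read.

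With 1 array each, the differences between the 2 null lines carry no replicate check and no test. In all, 272 probe sets differed by 2 log2 units or more with the higher value above its array median, 97 higher in 780 (0.579% of 16755) and 175 higher in p1522 (1.04%). The 43 pairs of oncogene lines of different lineages gave 21 to 455 such probe sets, and the 2 pairs of lines from the same lineage 16 and 174. Of the 43 pairs, 28 had more probe sets apart than the null pair, and 31 had a larger median absolute difference (0.22 in the null pair, a median of 0.26 over the 43). The null lines were thus no further apart than most oncogene lines of different lineages. Line p1522 had fewer probe sets apart from MVT1 (80) and 6DT1 (115) than from 780, but by median absolute difference it was farther from MVT1 (0.33) and 6DT1 (0.24) than from 780. The fewest for 780 against an oncogene line was 268 (cMyc). Centred on the lineage mean, the correlation over probe sets was 0.13 for the null pair, 0.04 for p1522 with MVT1, 0.26 for p1522 with 6DT1 and from -0.50 to 0.26 for null with oncogene lines, a description over genes that are not independent.

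The genes with the widest difference towards 780 had varied roles. Cxcl11, a T-cell chemokine induced by interferon, read 9.78 in 780 and 5.34 in p1522, against 4.62 to 5.43 (median 4.91) in the oncogene lineages. Ccl5, another T-cell chemokine, read 11.07 and 6.96 against 5.54 to 7.78 (median 5.86). Cxcl10, the third of this kind and a member of the interferon list, read 10.89 and 7.57 against 6.47 to 7.32 (median 6.70), so it was above all lineages in both lines and 3.32 higher in 780. For Cxcl11 and Ccl5 it was 780 that lay outside the oncogene range, with p1522 inside it. Ifit1 and Oasl1 were the other interferon list genes over 2 log2 units higher in 780, by 2.37 and 2.43.

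Cdh2, N-cadherin, read 11.42 in 780 and 7.37 in p1522 against 6.58 to 11.36 (median 8.90), and the protocadherin Pcdh18 read 10.82 and 7.27 against 5.79 to 9.38 (median 6.89). Pdgfb, a growth factor for mesenchymal cells, read 9.91 and 6.26 against 6.61 to 9.18 (median 7.28), above all lineages in 780 and below all in p1522. Pcbd1, an enzyme that recycles the pterin cofactor, read 9.75 and 5.61 against 5.43 to 6.02 (median 5.63). Outside the comparison, the spontaneous lineages had a Pcbd1 median of 8.15 and a maximum of 9.17, and NMUMG read 11.26, above 780. Rps6ka6, a kinase of the RSK family, Zdhhc15, a palmitoyl transferase, and Khdrbs3, an RNA-binding protein, were 3.98, 3.96 and 3.53 higher in 780, and each was above all 8 lineages there. Atp1b1, a sodium pump subunit, read 10.73 in 780, within the oncogene range, and 6.85 in p1522, below it.

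On the side higher in p1522, Gatm, the first enzyme of creatine synthesis, read 11.56 in p1522 and 5.20 in 780. The oncogene lineages covered nearly that whole span, 5.30 to 11.82 (median 10.55), with 780 just below and p1522 within. Dcn, the matrix proteoglycan decorin and a fibroblast marker, read 11.42 in p1522 and 5.46 in 780 against 5.09 to 7.5005 (median 5.74), so here p1522 stood outside. The other fibroblast markers did not share that height in p1522: Lum read 4.21, Col3a1 6.29, Thy1 5.34 and Fap 4.05, all below the array medians, while Pdgfra, Col1a1 and Pdpn read 7.97, 7.99 and 7.77. The smooth muscle actin gene Acta2 read 10.21 in p1522 and 6.52 in 780 (oncogene lineages 5.60 to 11.90), and was named after its values were seen.

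Further single genes were higher in p1522. Lcn2, an iron-siderophore binding protein, read 12.64 in p1522 and 7.06 in 780 against 5.77 to 13.50 (median 7.93), and the chitinase-like Chil1 9.83 and 5.37 against 4.74 to 7.36 (median 5.13). Plau, urokinase, read 10.23 in p1522 and 5.63 in 780 against 7.10 to 10.92 (median 9.06), with 780 below all lineages. For the adhesion receptor Adgre5, the granule proteoglycan Srgn, the LIM protein Crip1 and the lysophospholipase Gdpd3, 780 minus p1522 was -5.03, -4.52, -4.54 and -4.43, in each case with p1522 inside the oncogene range. Of the 24 genes in the cytokine and chemokine list, 4 were apart with p1522 higher, Cxcl1, Cxcl5, Ccl2 and Csf3, against 1.04% of all probe sets. In this list Ccl5 alone was apart with 780 higher, against 0.579%. Cxcl10 and Cxcl11, which are outside this list, were also apart with 780 higher, by 3.32 and 4.44. For Cxcl1, Cxcl5 and Csf3, which attract neutrophils or raise their number, 780 minus p1522 was -2.62, -3.48 and -2.35, and for the monocyte attractant Ccl2 it was -2.67. Cxcl1 read 9.21 in p1522 and 6.58 in 780 against 6.14 to 7.72 (median 6.59), and Ccl2 read 11.47 and 8.80 against 7.19 to 11.09 (median 9.19).

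In 46 of the 272 probe sets one null line lay above all 8 oncogene lineages and the other below all 8. Of these, 15 had 780 above and 31 had p1522 above. Ctsz, the lysosomal protease cathepsin Z, is the clearest loss in one line: it read 6.07 in 780 and 11.70 in p1522, while the 8 oncogene lineages held 10.01 to 11.46 (median 11.18) and the spontaneous lineages 10.66 to 11.45. Arpin, an inhibitor of the Arp2/3 actin complex, read 5.49 in 780 and 9.60 in p1522 against 8.06 to 9.43 (median 9.19), and 8.68 to 9.07 in the spontaneous lineages. For both genes 780 was the lowest lineage of the series. Nos2, inducible nitric oxide synthase, read 9.30 in p1522 against 5.35 to 6.32 in the oncogene lineages and 5.21 in 780. Slc16a3, a lactate exporter, read 10.45 in p1522 and 6.38 in 780 against 6.54 to 9.14 (median 7.10), and Plet1 10.88 and 6.79 against 7.35 to 10.53 (median 9.32).

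**Figure D5:**
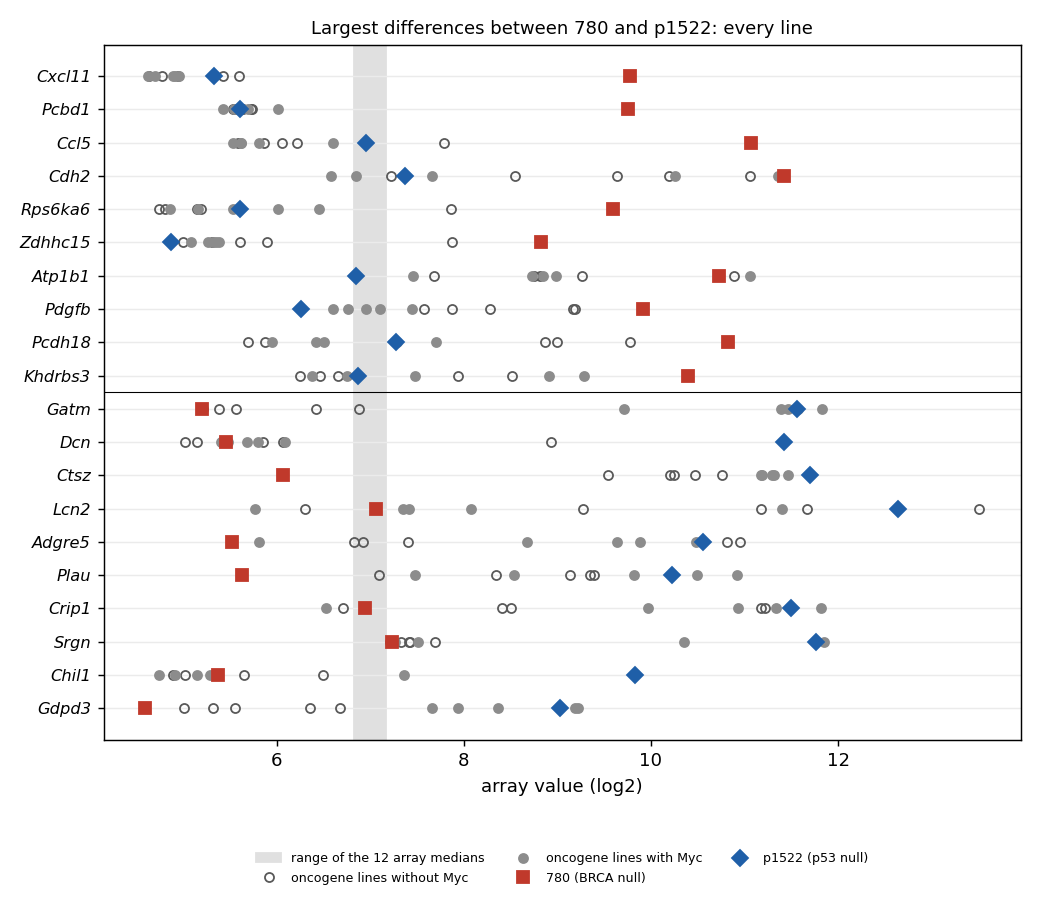
Log2 array values (x axis) in every line, 1 array each, of the 10 genes most above p1522 in 780 (above the line) and the 10 most above 780 in p1522 (below the line), with symbols as in the plot of called genes. Among the lines shown, the red square stands alone for Cxcl11 and Pcbd1 and the blue diamond for Dcn and Chil1. For Ctsz 780 at 6.07 lies far left of the other lines. For Gatm, Lcn2 and Gdpd3 the oncogene lines span most of the distance.

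Most of the 272 were of another kind, with one null line inside the oncogene range. On the side higher in p1522, 80 of 175 had 780 below all lineages and p1522 within, and 32 had p1522 above and 780 within. On the side higher in 780, 49 of 97 had 780 above and p1522 within, and 13 had p1522 below and 780 within. Line 780 therefore left the oncogene range in more of these probe sets than p1522 did, on both sides. In the p53 target list the pair was apart for Perp and Trp53inp1, an autophagy and stress gene, which read 6.07 in 780 and 8.61 in p1522 against 6.28 to 8.16 (median 7.06), opposite sides of the oncogene range, and was named after its values were seen.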

How the data were processed

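RNA of each line was measured on 1 mouse exon array, and the authors deposited 1 value per probe set and array. The deposited values are taken as log2 from their range (2.81 to 13.65), with background correction and normalization not given in the sources used here. Per the submitters' processing notes, GCOS and mm9 were used. Of 23332 entries, the 16755 numbered as transcript clusters were tested. Of these 14996 have 1 gene symbol, 1019 several and 740 none, and 14941 gene identifiers were found in the RefSeq table of GRCm38.p6. Trp53 and Krt8 were not analysed here.

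Lines of a common tumour or parent were averaged, which gave 2 null lines and 8 oncogene lineages. These were compared with limma 3.58.1 (lmFit, eBayes, two-sided, R 4.3.3) with Benjamini-Hochberg adjustment over all probe sets at 0.05. With 1 array per line, the p-values measure the spread between lines, and the number of arrays limits the precision. Lines beyond the others, and probe sets 2 log2 units apart between 780 and p1522 with the higher value above its array median, are descriptions with no test. The level filter asks that the higher group mean exceed every array median. Counts, gaps and plots came from pandas 2.3.3, numpy 2.4.6 and matplotlib 3.10.9 under Python 3.11.15.

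Tested on simulated data of 16755 probe sets for the same null against oncogene comparison, limma recovered 24 of 50 probe sets changed by 1 log2 unit, 44 of 50 at 2, 49 of 50 at 3 and 48 of 50 at 4, with 6 false calls. The simulated noise was normal and independent between probe sets, with the same SD in both groups and no shift between arrays. In the real data array brightness moved with the line groups, so these counts hold for the simulated setting only.

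The lines and the 25 gene lists (522 genes) were chosen with earlier results of these data known. Named genes have 1 symbol and are not predicted genes. They are the 10 largest calls in each direction, or all calls where fewer passed, and, with the level filter, the 10 widest gaps beyond the oncogene lineages in each direction. For 780 against p1522 they are, among probe sets apart, the 10 with the widest difference each way and the 6 farthest on opposite sides. Each list adds its 3 largest changes, its calls and its members with both null lines beyond. Brca1, Brca2, Myc, Wnt1, Vegfa, Mdm2, Cdkn1a, Cdkn2a and Rb1 were named in any case. Alternatives covered scaling, filters, units, eBayes options, medium, Myc and leaving out each lineage.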

Additional observations from a re-analysis of the deposited data

Results flagged for a closer look

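Among the 8 oncogene lineages, 1 lineage stood far from the other 7, by Dixon's 95% criterion, for 37 of the 185 named genes. Chance flags about 1 in 20 groups, and the genes were not chosen independently of these values. ZD2508, the Wnt lineage, was the distant one for 20 genes, DB7 for 12, M6 and MVT2 for 2 each and Myc83 for 1.

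DB7 stood apart for a group that holds the interferon and antigen presentation genes Ddx60, Ccl5, Ifit1, Irf9, Zbp1 and Psmb8. The log2 values in DB7 were Sox2 (6.72), Ddx60 (4.90), Ccl5 (7.78), Nos2 (6.32), Ltf (6.77), Prom1 (5.98), Wif1 (7.64), Ifit1 (9.99), Irf9 (9.57), Zbp1 (7.05), Psmb8 (7.91) and Myc (9.16). Myc was low in DB7, which carries polyoma middle T and no Myc transgene, and the other 11 were high. Without DB7 the number of calls rose from 24 to 45, and the interferon list members among them from 6 to 12. Those members numbered 9 without p1522, 4 without 6DT1, 3 without MVT1 or MVT2, 2 without ZD2508, cMyc, M6 or Myc83, and 1 without 780.

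ZD2508 stood apart for Nrn1 (6.41), Dcn (7.5005), Chek2 (6.81), Bub1 (8.20), Ttk (6.85), Tpx2 (9.02), Hrk (10.58), Cdh3 (7.69), Col3a1 (7.79), Ror2 (8.14), Fgfr3 (7.55), Ret (6.61), Mst1r (6.73), Lfng (9.96), Bmpr1b (6.00), Thbs2 (7.37), Cxcl14 (7.41), Cldn5 (6.41), Eng (8.73) and Vwf (6.84). Chek2, Bub1, Ttk and Tpx2, genes of cell division and its checkpoints, were low there and the other 16 high. The 2 lines of ZD2508 differ from the others in medium as well as in transgene, and medium and transgene cannot be told apart.

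The other distant values were Zdhhc15 (6.75) and Notch3 (8.73) in M6, Perp (8.51) and Loxl2 (9.85) in MVT2 and Akr1c18 (5.32) in Myc83. For Perp in MVT2, the distant lineage lay towards the null lines. For Akr1c18, the Myc83 value was still 2.57 log2 units below the lower null line.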

How the results depend on the processing

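Both null lines lay above the oncogene lineages for 16 of the 22 interferon response genes, and for 15 to 20 under the alternatives, except that 9 had a gap of at least 0.5. The count of 24 calls was 32 after centring, 27 after quantile normalization (1 of them lower), 20 with every table entry, 35 with the 12 lines as units, 25 with a trend and 23 with the robust option. It moved to 14 without the lowest bin of mean level, 2 with high-glucose lineages alone, 42 with Myc lineages alone, 6 without Myc lineages (4 higher, 2 lower) and 14 with Myc as a covariate (11 higher, 3 lower). Leaving out 1 lineage gave 10 (cMyc) to 118 (p1522). With a null line left out, the other is assumed to vary like the oncogene lineages. Smaller groups enter the medium and Myc alternatives, and the cause of each move was not tested.

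The 3570 probe sets beyond became 1607 after quantile normalization, 1850 without the lowest bin, 6235 against lineages without Myc and 69 with a gap of at least 0.5 (57 above, 12 below). With the level filter they were 809, and 813 after quantile normalization with it (292 above, 521 below), both alternatives chosen after seeing the data. Centring gave 829 above and 1970 below. Leaving out 1 oncogene lineage gave 3606 to 4174. The 272 probe sets apart became 91 at 3 log2 units, and lay between 222 and 296 otherwise.

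Of the named genes, those past the threshold kept their direction in the alternatives run on single genes. The sign turned for genes that did not pass: without Myc lineages for Cdh2 (-0.22), Pdgfb (-0.24), Gatm (2.54), Lcn2 (-1.05), Crip1 (0.43), Gdpd3 (0.88), Plet1 (0.28), Hey1 (-0.11), Has2 (-0.27), Cxcl5 (-0.0550), Vegfa (-0.0841), Mdm2 (0.20) and Cdkn1a (0.26); after quantile normalization for Fhit (0.0372), Myh11 (0.0456), Lgr5 (0.0603), Kdr (0.0075) and Vegfa (-0.0261); after centring for Cdkn1a (0.0165); with Myc lineages alone for Myc (-0.26); and in high-glucose lineages for Crip1 (0.28). The 10 fits that leave out 1 lineage gave differences of both signs for some genes, with the lowest and highest in brackets. These were Adgre5 (-3.19, 1.85), Arpin (-3.46, 0.65), Atp1b1 (-2.30, 1.58), Bok (-1.34, 0.0454), Cdh2 (-1.58, 2.47), Cdkn1a (-0.92, 0.76) and Cdkn2a (-0.47, 0.92). Also among them were Chil1 (-0.0875, 4.37), Crip1 (-2.67, 1.87), Ctsz (-4.86, 0.78), Dcn (-0.40, 5.56), Flt1 (-1.77, 0.67), Gatm (-3.98, 2.37) and Gdpd3 (-2.92, 1.505). The same held for Khdrbs3 (-0.72, 2.81), Lcn2 (-2.03, 3.55), Mdm2 (-0.68, 0.47), Myc (-0.0436, 0.44), Nos2 (-0.37, 3.72), Pcbd1 (-0.0441, 4.10) and Pdgfb (-1.22, 2.43). It held as well for Plau (-3.42, 1.17), Plet1 (-2.37, 1.71), Rps6ka6 (-0.12, 3.86), Sfrp1 (-2.32, 0.26), Slc16a3 (-1.04, 3.03), Srgn (-1.07, 3.45) and Zdhhc15 (-0.60, 3.36). The sign turned without 780 for 19 of these and without p1522 for 8, and without an oncogene lineage for Myc (DB7), Mdm2 (MVT2) and Cdkn1a (MVT1, MVT2).

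No paired analysis was possible because each line has 1 array and the titles carry no replicate number shared between groups. Values near the array medians limit what can be said of low genes.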
